A study of Mus musculus with 40 samples.

Results

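This report follows 5 interferon gamma response genes in mouse lung: Irf1, Irgm1, Igtp, Iigp1 and Gbp2. The members were found by gene symbol in the platform annotation, which gave 5 of the 12393 genes tested and 7 of the 20380 probe sets that carried a single symbol. Lung RNA from AJ mice, a strain the labels call hyperresponsive, and from C3H mice was measured on 40 one-colour Affymetrix arrays. The 8 groups held 5 arrays each: AJ or C3H, given an allergen in phosphate-buffered saline (PBS) or PBS alone by aspiration, and sampled 6 h or 24 h later. Titles write the allergen as OVA and descriptions as HDM, so it is called allergen here. Strain was read from the titles, because all 40 descriptions name AJ although 20 titles carry C3H. Age and sex of the mice were not given in the sources used here, and no allele or transgene is named. Nothing in the labels states that the 5 arrays of a group came from different animals, so the p-values cover only the array-to-array spread, which may be partly technical.

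Interferon gamma, made mainly by T cells and NK cells, binds a paired receptor on most cell types and acts through JAK kinases on STAT factors, which bind GAS elements in promoters. Irf1 is an early target and itself a transcription factor that binds ISRE elements of later targets. The immunity-related GTPases (IRG) and the guanylate-binding proteins (GBP) are large or mid-sized GTPases that gather on vacuoles of intracellular pathogens. Irgm1 and Igtp (also known as Irgm3) sit on the membranes of the cell's own organelles and hold effector IRG proteins such as Iigp1 (Irga6) inactive there.

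All 5 members rose at 6 h, and the promoters of 4 of them are shown with the elements searched in them; the Iigp1 promoter is not shown or searched here. Sequences are the 250 bases before the annotated start, from RefSeq on GRCm38.p6, written along the gene's strand. Capitals mark a GAS match (TTCNNNGAA) or an ISRE core match (GAAA, any 2 bases, then GAAA), searched on both strands.

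Irf1 (chr11:53769764-53770013, plus strand): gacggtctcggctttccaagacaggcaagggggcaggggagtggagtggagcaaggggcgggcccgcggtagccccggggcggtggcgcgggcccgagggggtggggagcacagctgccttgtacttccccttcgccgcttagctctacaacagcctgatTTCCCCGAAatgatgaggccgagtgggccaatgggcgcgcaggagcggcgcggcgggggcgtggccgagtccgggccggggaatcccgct

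Irgm1 (chr11:48871421-48871670, minus strand): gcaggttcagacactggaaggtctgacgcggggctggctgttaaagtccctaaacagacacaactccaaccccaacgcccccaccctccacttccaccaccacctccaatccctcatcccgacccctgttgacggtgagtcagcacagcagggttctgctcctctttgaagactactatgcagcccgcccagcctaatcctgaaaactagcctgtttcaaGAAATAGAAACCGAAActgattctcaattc

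Igtp (chr11:58199306-58199555, plus strand): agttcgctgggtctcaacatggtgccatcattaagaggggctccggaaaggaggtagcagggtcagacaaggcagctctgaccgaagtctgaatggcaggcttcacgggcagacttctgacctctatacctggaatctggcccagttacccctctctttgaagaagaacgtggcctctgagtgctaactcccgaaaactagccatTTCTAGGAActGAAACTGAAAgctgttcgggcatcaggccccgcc

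Gbp2 (chr3:142620413-142620662, plus strand): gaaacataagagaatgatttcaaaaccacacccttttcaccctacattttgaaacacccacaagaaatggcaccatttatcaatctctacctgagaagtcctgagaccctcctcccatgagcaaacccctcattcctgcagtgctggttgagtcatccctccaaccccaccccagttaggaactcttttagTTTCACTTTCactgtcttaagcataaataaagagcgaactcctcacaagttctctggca

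The Irf1 window holds a GAS match, TTCCCCGAA, from -90 to -82 before the start. A second annotated Irf1 start, with a window from 53770223 to 53770522, had neither match. The Igtp window holds a GAS match, TTCTAGGAA, from -45 to -37, and an ISRE core, GAAACTGAAA, from -34 to -25. The Irgm1 window holds a pair of ISRE cores that overlap by 4 bases, GAAATAGAAA from -30 to -21 and GAAACCGAAA from -24 to -15. In the Gbp2 window the ISRE core lies on the other strand and reads TTTCACTTTC from -59 to -50. Over all 32851 annotated windows of 300 bases (250 before to 50 after a start), 8.3% hold the GAS letters, 3.44% the ISRE core, 11.3% either and 0.454% both. A match describes the letters of the window and is not evidence of binding. The gene bodies lie on GRCm38.p6 at chr11:53770014-53778374 (Irf1), chr11:48865245-48871420 (Irgm1), chr11:58199556-58207592 (Igtp), chr18:60373616-60392634 (Iigp1) and chr3:142620663-142638008 (Gbp2).

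The deposited value is 1 intensity per probe set and array. Differences below are on the log2(intensity + 16) scale, with the standard error (SE) and the Benjamini-Hochberg adjusted p over all 12393 genes from limma, at a threshold of 0.05, two-sided. A gene rose or fell where it passed that threshold. Adding 16 before the log understates the change of dim genes. The arrays had been brought by the authors to a common trimmed mean (150.036 to 150.046), and their medians ran from 63.7 to 81.3. Markers of alveolar epithelium were bright on every array, with a mean log2 level of 10.59 to 11.12 over the 12 measured of 13 listed. Since whole lung was measured, more cells of a type and more RNA per cell cannot be told apart.

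All 5 members rose at 6 h after allergen in both strains. The members were chosen with earlier results of these data known, so the shares beside their counts do not test the set. In AJ mice the 5 of 5 that rose stand beside 7.03% of all genes, and for 4 of the 5 every allergen array lay above every PBS array, which held for 5.62% of all genes. In C3H mice the 5 of 5 stand beside 3.93% of all genes, and all 5 had separate groups, beside 3.1% of all genes. At 24 h, 2 members were still higher in AJ mice (Gbp2 and Iigp1, beside 4.56% of all genes) and 3 in C3H mice (Gbp2, Igtp and Iigp1, beside 2.1%). Groups were separate for 1 member in AJ mice at 24 h (Iigp1, beside 4.82% of all genes) and for 3 in C3H mice (beside 2.59%).

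**Figure D1:**
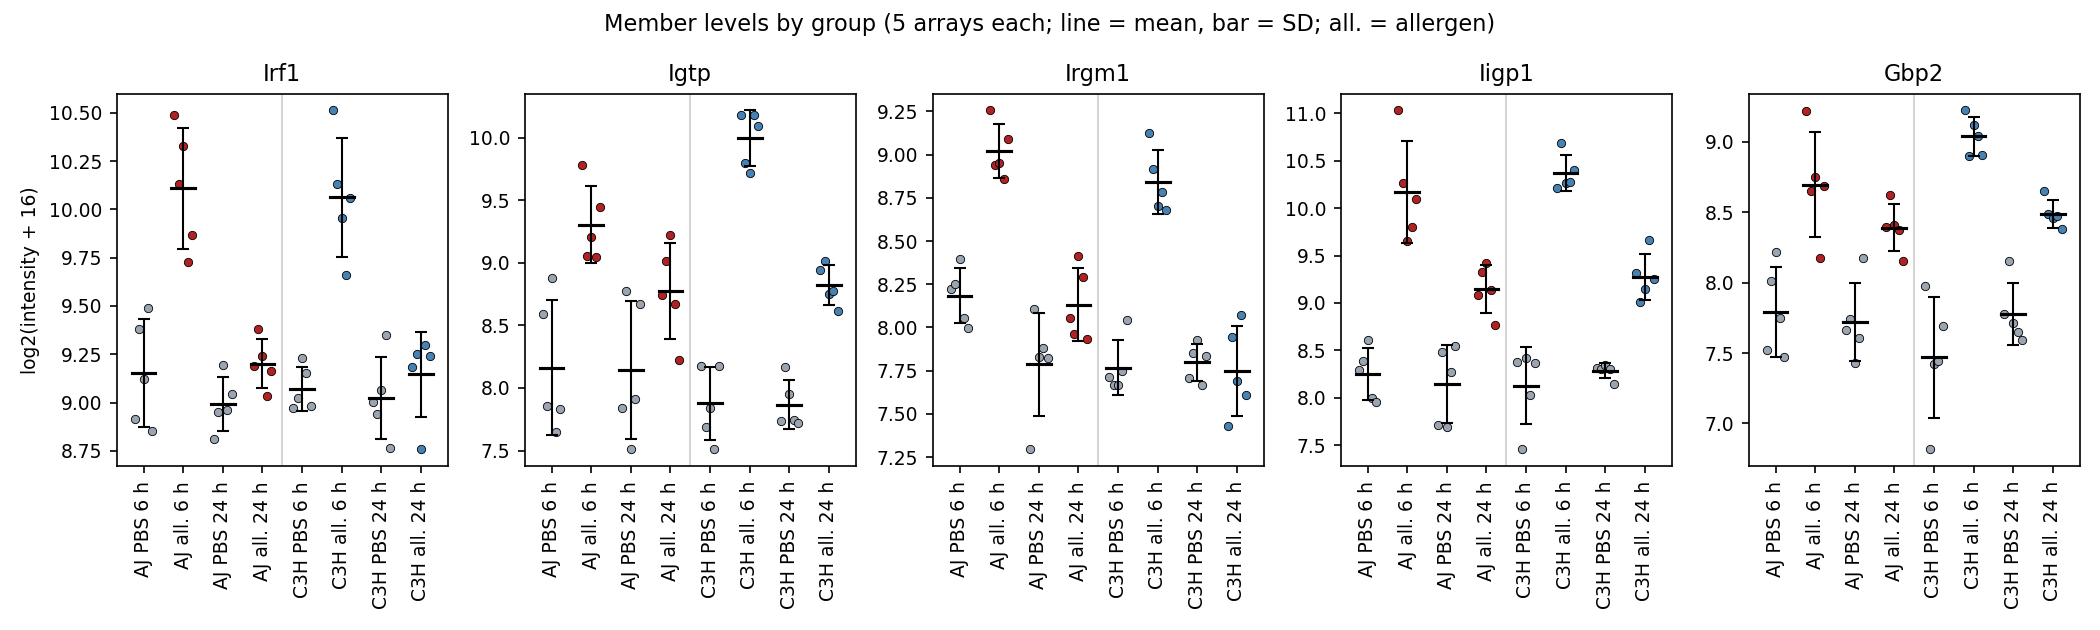
Level of each member, log2(intensity + 16) on the vertical axis, in the 8 groups of 5 arrays; points are arrays, lines are means and bars are SDs. In all 5 panels the 6 h allergen groups are the highest in each strain, and for Irf1 the 24 h allergen points overlap the PBS points in both strains.

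Irf1, the transcription factor among the members, had intensities in AJ mice at 6 h of 1422, 1106, 1269, 831 and 917 with allergen, beside 466, 652, 541, 702 and 446 with PBS. Every allergen array was above every PBS array. The difference was 0.96 ± 0.14 (SE, n = 5 per group, limma adjusted p = 3.15e-06), a fold of 1.94. In C3H mice at 6 h Irf1 stood at 1445, 1105, 978, 792 and 1050.2 with allergen and at 486, 504, 584, 553 and 489 with PBS. Again the groups did not overlap, and the difference was 0.99 ± 0.14 (limma adjusted p = 6.92e-06). At 24 h the AJ allergen arrays held 569, 650.5, 588, 507 and 558, and the PBS arrays 433, 479, 569.9, 482 and 512. Those groups overlapped, with a difference of 0.21 ± 0.14 that did not pass (limma adjusted p = 0.494). In C3H mice at 24 h the allergen arrays held 566, 593, 417, 613 and 589 and the PBS arrays 496, 476, 519, 636 and 419, which overlapped as well (0.12 ± 0.14, limma adjusted p = 0.711). Ordered by mean log2 level, the AJ (10.11) and C3H (10.06) 6 h allergen groups came first and did not differ beyond their spread. The other 6 groups followed from 9.20 to 8.99, with no neighbours apart by more than their spread.

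Irgm1, a regulatory GTPase that holds effector IRG proteins inactive, showed the same order at 6 h. AJ intensities were 595, 475, 479.5, 448 and 529 with allergen and 283, 289, 321, 250.1 and 239 with PBS. All 5 allergen arrays were above all 5 PBS arrays, and the difference was 0.83 ± 0.13 (limma adjusted p = 5.01e-06). C3H intensities were 543, 468, 400.1, 425 and 395 with allergen and 194, 187, 188, 199 and 248 with PBS, also without overlap (1.07 ± 0.13, limma adjusted p = 2.15e-07). At 24 h in AJ mice Irgm1 read 249, 234, 325, 297 and 229 with allergen and 141, 259.7, 211, 219.9 and 211 with PBS. The groups overlapped and the difference was 0.34 ± 0.13 (limma adjusted p = 0.104). It passed without AJ PBS replicate 2, whose 259.7 was the highest of its group (0.42, limma adjusted p = 0.0475). At 24 h in C3H mice the values were 156, 230.0, 191, 253 and 179.6 with allergen and 193, 216, 227, 187 and 212 with PBS, a difference of -0.05 ± 0.13 (limma adjusted p = 0.886). The mean level was highest in the 6 h allergen groups of AJ (9.02) and C3H (8.84), which did not differ beyond their spread, and lowest in the C3H allergen group at 24 h (7.75).

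Igtp, the second regulatory GTPase, had the widest gap between strains in its 6 h response among the 5 members. The test of that gap did not pass (0.97, limma adjusted p = 0.0892). At 6 h the AJ arrays held 863, 515, 574, 514 and 681 with allergen and 369.6, 215, 455, 185 and 211 with PBS. The groups were separate, and the difference was 1.15 ± 0.22 (limma adjusted p = 0.000129), a fold of 2.21. The C3H arrays held 1149, 874, 827, 1148 and 1081 with allergen and 272, 190.2, 213, 166 and 273 with PBS. Here the lowest allergen array was above 3 times the highest PBS array, and the difference was 2.12 ± 0.22 (limma adjusted p = 1.1e-08), a fold of 4.35. At 24 h in AJ mice Igtp read 412, 503, 582, 391 and 282 with allergen and 213, 422, 167, 225 and 392 with PBS. The groups overlapped and the difference of 0.63 ± 0.22 did not pass (limma adjusted p = 0.0722). It passed without AJ PBS replicate 2 (0.79, limma adjusted p = 0.0232), without AJ PBS replicate 5 (0.76, 0.0318) and without AJ allergen replicate 5 (0.77, 0.0281). At 24 h in C3H mice allergen gave 476, 503, 415, 423 and 377 and PBS 197.5, 272, 232, 198 and 195, which were separate (0.96 ± 0.22, limma adjusted p = 0.00927). By mean log2 level the order was C3H 6 h allergen (9.9975), AJ 6 h allergen (9.31), C3H 24 h allergen (8.82) and AJ 24 h allergen (8.77), then the 4 PBS groups (8.16 to 7.87). The first pair of steps exceeded the spread of the groups, and no later step did.

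Iigp1, an effector IRG protein that disrupts pathogen vacuoles, had the largest differences at 6 h among the 5 members. On its brighter probe set the AJ arrays at 6 h held 2073, 1215, 792, 878 and 1080.4 with allergen and 298, 318, 375, 240.5 and 232 with PBS. The lowest allergen array was more than 2 times the highest PBS array, and the difference was 1.92 ± 0.20 (limma adjusted p = 2.08e-09), a fold of 3.79. The C3H arrays held 1169.7, 1628, 1211, 1224 and 1336 with allergen and 317, 159.7, 325, 245 and 315 with PBS. Those groups lay far apart, with a difference of 2.24 ± 0.20 (limma adjusted p = 4.4e-10), a fold of 4.71. At 24 h the AJ arrays read 528, 624, 669, 545 and 421 with allergen and 194, 343, 191, 293 and 359 with PBS. Iigp1 was the member whose AJ groups were still separate at that time (1.002 ± 0.20, limma adjusted p = 0.000685). At 24 h the C3H arrays read 621, 498, 549.7, 792 and 595 with allergen and 303, 301, 309.7, 299.5 and 267 with PBS, also separate (0.99 ± 0.20, limma adjusted p = 0.00266). The order of mean log2 levels was C3H 6 h (10.37) and AJ 6 h (10.17) with allergen, then C3H 24 h (9.28) and AJ 24 h (9.15) with allergen, then the PBS groups (8.28 to 8.13). The strains did not differ beyond their spread at either time, while the steps between the 6 h, 24 h and PBS levels did exceed it. The dimmer probe set of Iigp1 passed in all 4 comparisons too, with differences of 1.82, 0.94, 2.33 and 0.98 in AJ at 6 h, AJ at 24 h, C3H at 6 h and C3H at 24 h.

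Gbp2, a guanylate-binding protein, was measured by a pair of probe sets that differed at 24 h. On the brighter one the AJ arrays at 6 h held 580.1, 387, 416, 273 and 395 with allergen and 168, 242, 282, 199.5 and 161 with PBS. Allergen replicate 4, at 273, fell below PBS replicate 3, so these groups overlapped, and the difference was 0.90 ± 0.17 (limma adjusted p = 0.000113). The C3H arrays at 6 h held 582, 461, 539.8, 511 and 465 with allergen and 236, 96.6, 156, 158 and 191 with PBS. All allergen arrays were above all PBS arrays, and the difference was 1.57 ± 0.17 (limma adjusted p = 3.16e-08), a fold of 2.97. At 24 h in AJ mice the values were 321, 378, 323, 316 and 269 with allergen and 186, 198, 157, 179 and 272 with PBS. One PBS array, replicate 5, reached the lowest allergen array, and the difference was 0.67 ± 0.17 (limma adjusted p = 0.00889). At 24 h in C3H mice they were 386, 342, 336, 339 and 317 with allergen and 204, 269, 194, 184 and 177 with PBS, which were separate (0.71 ± 0.17, limma adjusted p = 0.014). The other probe set, of a type that can bind related transcripts, rose at 6 h, by 1.09 ± 0.23 in AJ and 1.69 ± 0.23 in C3H mice. At 24 h it did not pass, with 0.62 ± 0.23 in AJ (limma adjusted p = 0.113) and 0.19 ± 0.23 in C3H (limma adjusted p = 0.744). Its C3H arrays at 24 h held 129, 181, 194, 253 and 80.1 with allergen and 177, 157, 112, 102 and 146 with PBS, which overlapped. So the 24 h calls of Gbp2 hold for 1 of its 2 probe sets. Averaged over both, the C3H difference at 24 h was 0.45 (limma adjusted p = 0.172).

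AJ allergen replicate 1 at 6 h was the highest array of its group for all 5 members. For Iigp1 it read 2073 beside 792 to 1215 in the other 4. Without it all 5 members still rose in AJ mice at 6 h, by 0.77 (Gbp2) to 1.71 (Iigp1), with limma adjusted p-values up to 0.000963. The mean log2 level of the T and NK cell markers on that array was 6.41, beside 6.02 to 6.23 on the other 4 arrays. Its endothelial (9.01) and alveolar epithelial (10.6) marker means were the lowest of the group, close to those of replicate 5 (9.02 and 10.62). On replicate 1 the means of macrophages (8.29), neutrophils (8.73), muscle (7.25) and adipose tissue (7.69) lay within the range of the other 4 arrays. The part of any of these lists in the members' values was not tested.

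**Figure D2:**
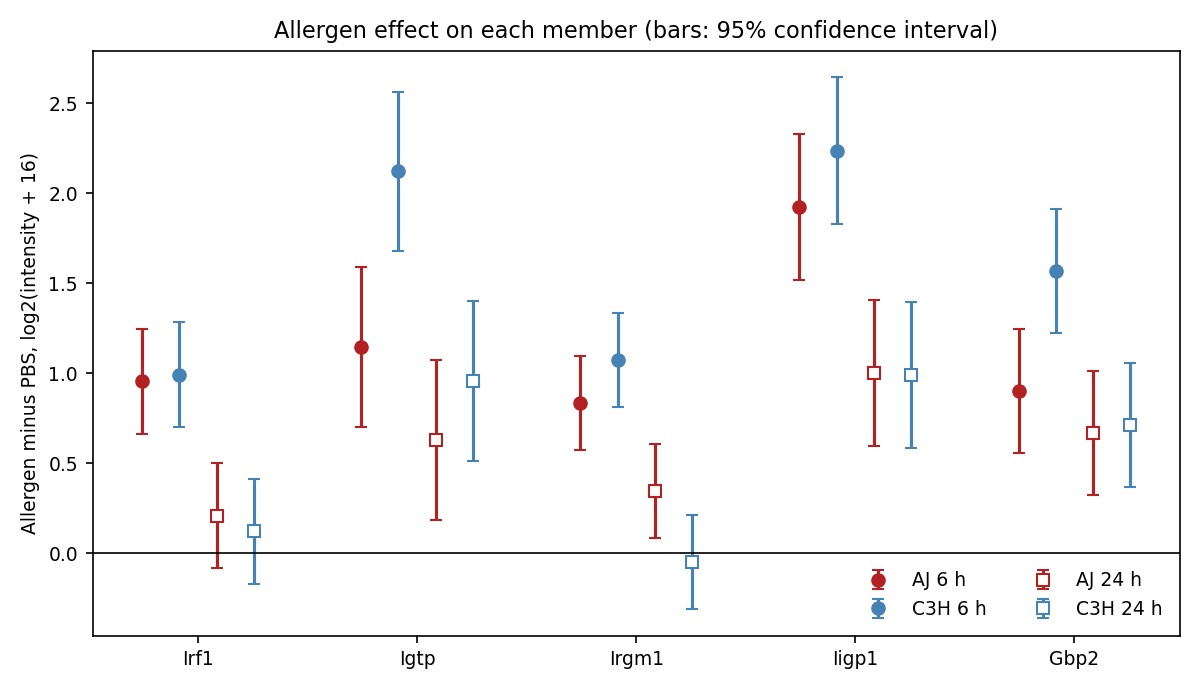
Allergen minus PBS for each member, in log2(intensity + 16) units, with 95% confidence intervals; colour gives the strain, filled circles 6 h and open squares 24 h. All 6 h intervals lie above 0, while those of Irf1 at 24 h in both strains and of Irgm1 at 24 h in C3H include it.

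The allergen effects at 6 h were then compared between strains, as C3H minus AJ. None of the 5 members passed (limma, 2.15% of all genes passed in either direction, 1.15% higher and 1.01% lower). Igtp had the largest difference, 0.97 with a 95% interval of 0.35 to 1.60 (limma adjusted p = 0.0892). Without AJ allergen replicate 1 it passed, at 1.09 (limma adjusted p = 0.0452). Gbp2 differed by 0.67 (0.18 to 1.15, limma adjusted p = 0.156), and by 0.80 without that array (limma adjusted p = 0.0531). For Iigp1 the interval was -0.26 to 0.89 and for Irgm1 it was -0.13 to 0.61, around differences of 0.32 and 0.24. Irf1, the transcription factor, differed by 0.04, with an interval of -0.38 to 0.45. At 24 h the strain difference passed for 0 of 5 members (limma, beside 0.46% of all genes). Irgm1 stood at -0.39 (-0.76 to -0.02, limma adjusted p = 0.366), and the other 4 ranged from -0.09 to 0.33.

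The effect at 24 h was smaller than at 6 h for some members by the test of that difference. In C3H mice Irgm1 fell by 1.12 ± 0.18 between times (limma adjusted p = 0.000952), Iigp1 by 1.25 ± 0.28 (limma adjusted p = 0.0252) and Irf1 by 0.87 ± 0.20 (limma adjusted p = 0.031), 3 of 5 members beside 0.444% of all genes. Igtp (-1.16 ± 0.31, limma adjusted p = 0.0575) and Gbp2 (-0.86 ± 0.24, limma adjusted p = 0.0797) had values below 0 that did not pass. Igtp did pass with a pseudocount of 64 (limma adjusted p = 0.0397) and with only the groups of the contrast (limma adjusted p = 0.00913), among other settings. It also passed without C3H PBS replicate 5 or C3H allergen replicate 3 at 6 h. With the mean of all probe sets both Igtp and Gbp2 passed (limma adjusted p = 0.048 and 0.0138). Without C3H PBS replicate 2 at 6 h, 1 of the 5 passed, Irgm1, with Iigp1 at -1.08 (limma adjusted p = 0.0592) and Irf1 at -0.86 (limma adjusted p = 0.0524). The C3H call of Irf1 was also lost with median centring, and without C3H PBS replicate 1 or allergen replicate 1 at 6 h or C3H PBS replicate 3 or 4 or allergen replicate 3 at 24 h (limma adjusted p up to 0.0808). In AJ mice Irf1 fell by 0.75 ± 0.20 (limma adjusted p = 0.0202) and Iigp1 by 0.92 ± 0.28 (limma adjusted p = 0.0466), 2 of 5 members beside 2.1% of all genes. The AJ call of Iigp1 was lost under most of the alternatives run, for example to -0.71 (limma adjusted p = 0.0996) without AJ allergen replicate 1 at 6 h. The other AJ values were -0.49 for Irgm1, -0.52 for Igtp and -0.23 for Gbp2, whose interval ran from -0.72 to 0.25. The dimmer Gbp2 probe set passed in C3H mice (-1.501 ± 0.32, limma adjusted p = 0.0187). The dimmer Iigp1 probe set did not pass in C3H (-1.35 ± 0.37, limma adjusted p = 0.0783) or AJ mice (-0.88 ± 0.37, limma adjusted p = 0.208).

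Without allergen the members were close between strains and times. Among PBS arrays, 0 of 5 passed for C3H against AJ at 6 h (beside 4.45% of all genes, limma) and 0 at 24 h (beside 1.93%). For 24 h against 6 h, 0 of 5 passed in AJ (beside 5.37%) and 0 in C3H mice (beside 3.21%). The differences furthest from 0 were those of Irgm1 in the first and the third comparison. Irgm1 was 0.42 lower in C3H than in AJ PBS mice at 6 h (-0.42 ± 0.13, limma adjusted p = 0.054) and -0.40 ± 0.13 at 24 h against 6 h in AJ PBS mice (limma adjusted p = 0.0603). AJ PBS arrays at 6 h held 239 to 321 for Irgm1, while the other 3 PBS groups spanned 141 to 259.7. The other 4 members had differences from -0.32 to 0.31 in these comparisons.

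The profiles of the members over the 8 groups fell into patterns of unequal likeness, measured as the root mean square difference between group means after each gene was centred. Irgm1 was closest to Irf1 (0.128 log2 units) among all genes tested. The genes most like Irf1 were Sod2, a mitochondrial superoxide dismutase (0.108), Pkib (0.111), Eif1a (0.115) and Uck2 (0.118), and after Irf1 those most like Irgm1 were Birc2 (0.136), Eif1a (0.137) and Mefv (0.138). Iigp1 and Igtp shared Irgm2, Ifi47 and Socs1 among their 4 closest genes. For Iigp1 these stood at 0.177, 0.205 and 0.222, with Selp at 0.223, and for Igtp Ifi47 stood at 0.142, Irgm2 at 0.197, Gbp2b at 0.207 and Socs1 at 0.209. Gbp2 was closest to other family members, Gbp2b (0.124) and Gbp6 (0.139), then to Cd209a (0.164) and Gbp3 (0.179). The median over all genes lay between 0.469 and 0.886 for these 5 profiles. These medians were close to the SD of each member's own group means (0.433 for Irf1, 0.858 for Iigp1). They are therefore no chance level of likeness, and the measure is not scaled for the size of a response. Near-identical GBP and IRG genes may share probe hybridisation, so values of close relatives are not independent.

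The other GTPases of both families that had a probe set of their own were 7. Irgm2, another regulatory GTPase, rose by 1.499 ± 0.26 in AJ (limma adjusted p = 2.47e-05) and 2.09 ± 0.26 in C3H mice at 6 h (limma adjusted p = 2.77e-07). Its promoter window held the same pair of elements as Igtp, a GAS match TTCCAGGAA from -75 to -67 and the ISRE core GAAACTGAAA from -64 to -55. At 24 h Irgm2 stood at 0.54 ± 0.26 in AJ, which did not pass (limma adjusted p = 0.243), and rose by 1.17 ± 0.26 in C3H mice (limma adjusted p = 0.00572). Ifi47, an IRG family member, rose by 1.57 ± 0.19 in AJ and 1.83 ± 0.19 in C3H mice at 6 h, and by 0.62 ± 0.19 and 0.89 ± 0.19 at 24 h. Its AJ call at 24 h (limma adjusted p = 0.0371) was lost in 6 of 15 alternatives, median centring among them. Of 5 other guanylate-binding proteins with values (10 listed), 3 rose in AJ mice at 6 h and 5 in C3H mice, with median differences of 0.74 and 1.33 beside -0.07 and -0.00 over all genes. Of all genes, 7.03% rose in AJ and 3.93% in C3H mice. In AJ mice the 3 were Gbp3 (1.01 ± 0.23), Gbp6 (0.98 ± 0.24) and Gbp2b (0.74 ± 0.21), while Gbp8 at 0.54 ± 0.22 and Gbp7 at 0.11 ± 0.26 did not pass. In C3H mice Gbp2b rose by 1.91 ± 0.21, Gbp6 by 1.65 ± 0.24, Gbp8 by 1.33 ± 0.22, Gbp3 by 1.24 ± 0.23 and Gbp7 by 1.13 ± 0.26. At 24 h, 1 of the 5 was higher in AJ mice (Gbp2b, 0.70 ± 0.21) and 2 in C3H mice (Gbp6, 1.13 ± 0.24, and Gbp8, 1.03 ± 0.22), beside 4.56% and 2.1% of all genes. The AJ count at 24 h was 0 to 2 when single arrays were left out.

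The 11 GTPases and Irf1, 12 genes in all, each had a larger difference in C3H than in AJ mice at 6 h as deposited, beside 59.8% of all genes. When arrays were centred on their medians 11 of the 12 did, beside 46.9% of all genes. Among PBS arrays at 6 h, 1 of the 12 had a C3H minus AJ difference above 0, beside 48.5% of all genes, and 0 passed. The larger differences therefore take in the PBS levels as well as those with allergen. With allergen at 6 h, mean log2 levels of Irf1, Irgm1 and Gbp3 were higher in AJ mice and those of the rest in C3H mice. Of these 12, 1 passed the test of the strain difference, beside 2.15% of all genes in either direction. Gbp2b differed by 1.17 ± 0.30 (limma adjusted p = 0.0253), and this call was lost with median centring (0 of 12 passed). It was also lost without some single arrays, with limma adjusted p-values from 0.00486 to 0.0679 over the alternatives run. Gbp2b intensities at 6 h in AJ mice were 782, 419.8, 457, 268 and 495 with allergen and 207, 296, 387, 247 and 229 with PBS. In C3H mice they were 719, 568, 737, 803 and 660.3 with allergen and 254, 114, 171, 133 and 227 with PBS. The AJ groups overlapped and the C3H groups did not. Mean log2 levels of Gbp2b at 6 h were 8.14 in AJ and 7.56 in C3H mice with PBS, and 8.89 and 9.47 with allergen. The AJ rise at 6 h was lost without AJ allergen replicate 1 (limma adjusted p = 0.0579), and the AJ rise at 24 h was lost in 5 of 15 alternatives.

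Antiviral genes known from the type I interferon response were set beside these. Of 25 measured (30 listed), 18 rose in AJ mice at 6 h and 4 in C3H mice, and 9 passed as lower in C3H minus AJ with 0 higher. Over all genes, 7.03% rose in AJ and 3.93% in C3H mice, and 1.01% passed as lower in C3H minus AJ. The median strain difference over the 25 was -0.55, beside 0.06 over all genes. Rsad2 (-1.83 ± 0.30, limma adjusted p = 0.000341), the antiviral enzyme viperin, Oasl1 (-1.59 ± 0.23) and the GTPases Mx1 (-1.55 ± 0.22) and Mx2 were among the 9. Rsad2 rose by 1.87 ± 0.22 in AJ mice at 6 h and stood at 0.04 ± 0.22 in C3H mice. Mx2 was dim, at 4.86 to 14.6 in every group but AJ allergen at 6 h, which spanned 15.8 to 189. Its strain difference therefore depends on the pseudocount and ran from -3.10 to -1.14 over the alternatives, with limma adjusted p up to 0.00136. The count of 9 ran from 7 to 10 when single arrays were left out, and the count of 4 in C3H mice fell to 2 without C3H PBS replicate 1, C3H PBS replicate 2 or C3H allergen replicate 1. Irf7, Stat2 and Usp18 stand in this list and in another list below.

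**Figure D3:**
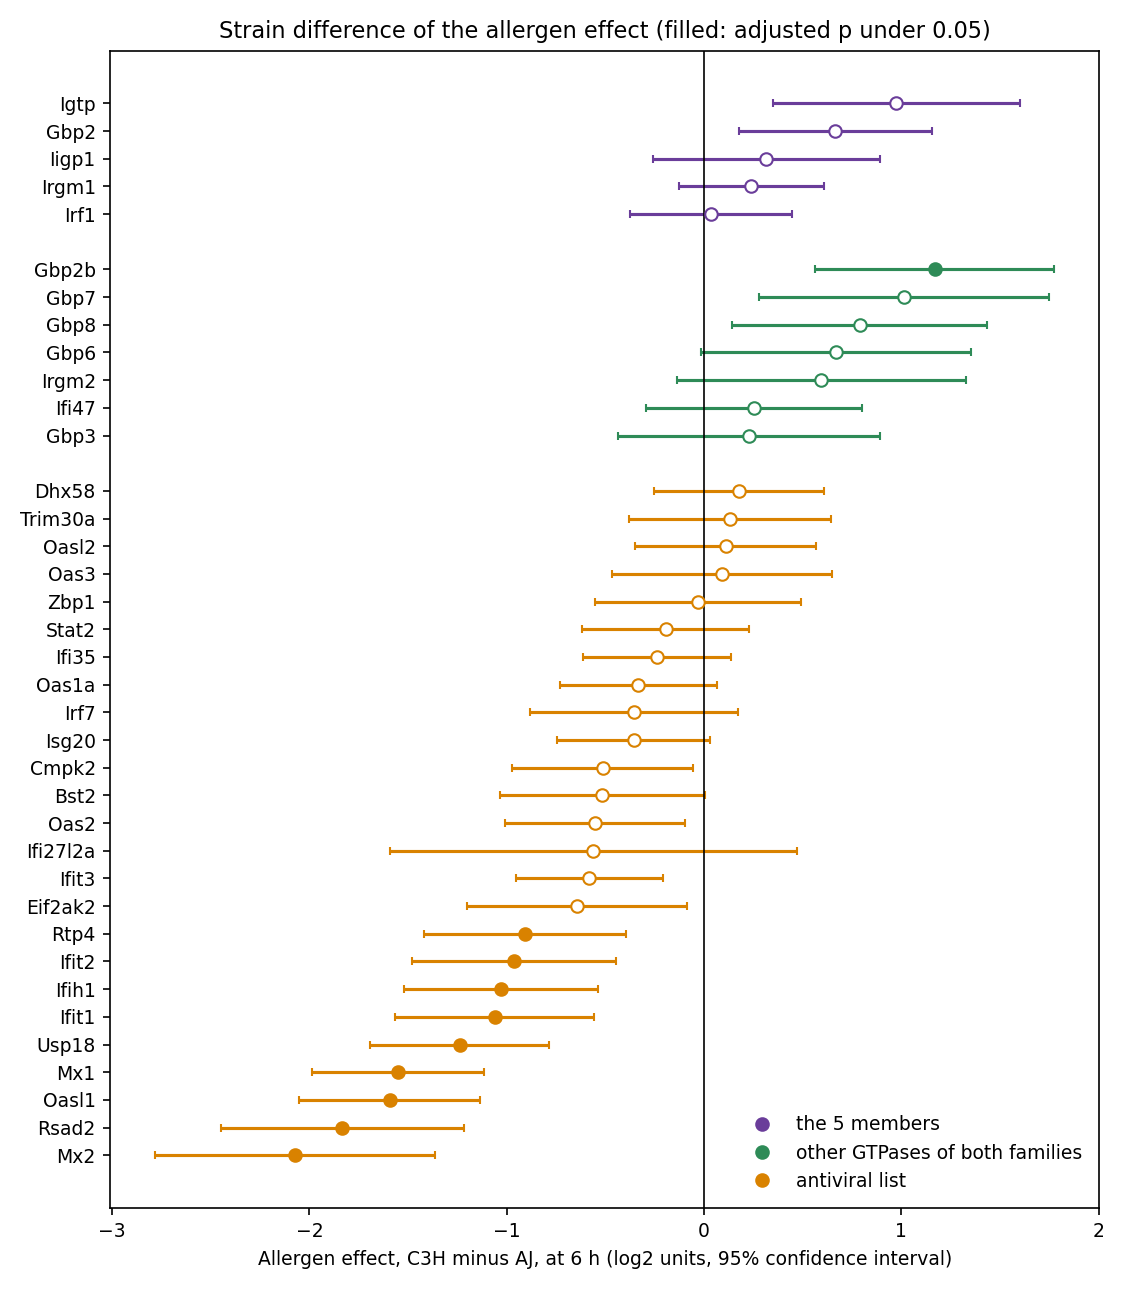
Allergen effect at 6 h in C3H minus AJ mice, in log2 units with 95% confidence intervals, for the 5 members, 7 other GTPases of both families and 25 antiviral genes; filled points passed at an adjusted p under 0.05. Gbp2b is the filled point above 0, and the 9 filled points below 0 are antiviral genes, with Mx2, a dim probe set, at -2.07.

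Upstream of the members, Ifng was dim. Its intensities at 6 h in AJ mice were 40.7, 40.3, 31.3, 38.8 and 26.9 with allergen and 14.9, 21.9, 13.3, 31.8 and 13.4 with PBS. The groups overlapped through PBS replicate 4, and Ifng rose by 0.58 ± 0.17 (limma adjusted p = 0.0113), a call lost with a pseudocount of 1 (limma adjusted p = 0.0677). In C3H mice it read 36.0, 30.1, 33.6, 37.8 and 31.5 with allergen and 9.78, 11.0, 6.30, 15.1 and 16.8 with PBS, which were separate (0.85 ± 0.17, limma adjusted p = 0.000689). The size depends on the pseudocount, between 0.27 and 0.93 in AJ and between 0.37 and 1.51 in C3H mice over the alternatives. At 24 h Ifng did not pass in either strain (0.26 and 0.03). Of 7 measured genes for interferon gamma and its inducers, 2 rose at 6 h in each strain and 0 at 24 h: Ebi3, a cytokine subunit, was the other in AJ mice (0.95 ± 0.20) and Il15 in C3H mice (0.37 ± 0.11). The C3H count was 1 without C3H PBS replicate 1, 2 or 3 or C3H allergen replicate 2, 3 or 4, since Il15 was then lost. The list medians at 6 h were -0.09 in AJ and 0.31 in C3H mice. Over all genes, 7.03% rose in AJ and 3.93% in C3H mice at that time.

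Ifngr2, the signalling chain of the interferon gamma receptor, rose at 6 h in both strains. AJ arrays held 116, 250.2, 199, 178 and 191 with allergen and 149, 118, 61.6, 186 and 127 with PBS. They overlapped, and the difference was 0.52 ± 0.18 (limma adjusted p = 0.0397), a call lost in 7 of 15 alternatives. C3H arrays held 433, 259.7, 235, 258 and 314 with allergen and 177, 141, 161, 144 and 164 with PBS, which were separate (0.84 ± 0.18, limma adjusted p = 0.00241). Ifngr1, the ligand-binding chain, did not pass (0.06 ± 0.19 in AJ and 0.24 ± 0.19 in C3H mice). Of the 9 receptor genes listed, 2 rose in AJ (the other was Il18rap, 0.59 ± 0.13) and 1 in C3H mice at 6 h, and 0 at 24 h. The shares of all genes that rose at 6 h were 7.03% in AJ and 3.93% in C3H mice.

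At 6 h the list of JAK kinases, STAT factors and their partner Irf9 (7 measured) held 5 genes higher and 1 lower in AJ mice and 2 higher in C3H mice. Over all genes, 7.03% rose and 12% fell in AJ mice, and 3.93% rose in C3H mice. Irf9 is one of the 5 and stands also among the interferon regulatory factors. Jak2, a kinase of the interferon gamma receptor, rose by 0.73 ± 0.15 in AJ and 0.53 ± 0.15 in C3H mice, and Stat2 by 0.69 ± 0.15 and 0.50 ± 0.15. The C3H count of 2 was 0 without C3H allergen replicate 1 or 5, and 1 without C3H allergen replicate 2 or C3H PBS replicate 1 or 2. Stat4 (0.94 ± 0.22) and Stat3 (0.78 ± 0.22) rose in AJ mice, Irf9 rose there by 0.40 ± 0.11, and Tyk2 fell by 0.47 ± 0.12. Jak1 did not pass in either strain (0.33 ± 0.14 and 0.22 ± 0.14). At 24 h 1 gene rose in AJ mice, Jak2 (0.63 ± 0.15), and 0 in C3H mice.

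Of 10 inhibitors of interferon signalling measured, 6 rose in AJ and 4 in C3H mice at 6 h, with medians of 1.21 and 0.45. Of all genes, 7.03% and 3.93% rose. At 24 h 3 of the 10 rose in AJ (2 to 4 when single arrays were left out) and 2 in C3H mice, beside 4.56% and 2.1% of all genes. That C3H count was 1 without any one of the 5 PBS arrays or without allergen replicate 1, 2 or 4, and 3 at most. Socs1, the feedback inhibitor of JAK kinases, read 47.3, 79.7, 56.3, 109.8 and 116 in AJ allergen arrays at 6 h and 19.0, 20.1, 5.42, 1.84 and 13.4 in PBS arrays. In C3H mice it read 170.2, 73.8, 99.4, 111 and 156 with allergen and 21.7, 25.3, 38.6, 17.1 and 6.07 with PBS. Both strains had separate groups, with differences of 1.80 ± 0.25 (limma adjusted p = 6.35e-07) and 1.88 ± 0.25 (limma adjusted p = 1.14e-06). The phosphatase Ptpn2, which removes phosphate from JAK and STAT proteins, rose by 2.89 ± 0.29 in AJ and 1.81 ± 0.29 in C3H mice, and Socs3 by 2.88 ± 0.17 and 1.86 ± 0.17. The strain difference passed for 3 of the 10, beside 2.15% of all genes. Socs3 (-1.02 ± 0.24) and Usp18 (-1.24 ± 0.22) were lower and Irf2 (1.21 ± 0.27, limma adjusted p = 0.00911) higher in C3H minus AJ. Without C3H PBS replicate 2 at 6 h, 4 of the 10 were lower.

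Irf2, which competes with Irf1 for ISRE elements, rose at 6 h in C3H mice and did not pass in AJ mice; it was not tested against Irf1. At 6 h AJ arrays held 113, 69.9, 119, 107 and 123 with allergen and 134, 122, 177, 183 and 163 with PBS, a difference of -0.49 ± 0.19 that did not pass (limma adjusted p = 0.0656). C3H arrays held 223, 134, 178, 97.1 and 133 with allergen and 69.8, 64.3, 93.9, 123 and 78.4 with PBS, and Irf2 rose there by 0.71 ± 0.19 (limma adjusted p = 0.0145), a call lost without C3H PBS replicate 2 or C3H allergen replicate 1 (limma adjusted p up to 0.0768). Both pairs of groups overlapped, and the AJ and C3H PBS groups did not lie at the same level (means of 7.41 and 6.64 on the log2 scale). The strain difference of Irf2 passed in all 25 alternatives run. Of the 8 interferon regulatory factors measured (9 listed, Irf1 and Irf2 among them), 5 rose in AJ and 4 in C3H mice at 6 h, 2 in AJ and 0 in C3H mice at 24 h. The shares of all genes that rose were 7.03% and 3.93% at 6 h, and 4.56% in AJ mice at 24 h. The count of 2 was 1 without AJ allergen replicate 1, 2 or 3 or AJ PBS replicate 1 or 2 at 24 h. Irf4 (1.78 ± 0.25 and 0.90 ± 0.25 in AJ and C3H mice at 6 h) and Irf5 (0.59 ± 0.10 and 0.40 ± 0.10) rose in both strains, and Irf8 did not pass in either (0.43 ± 0.17 and 0.52 ± 0.17).

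**Figure D4:**
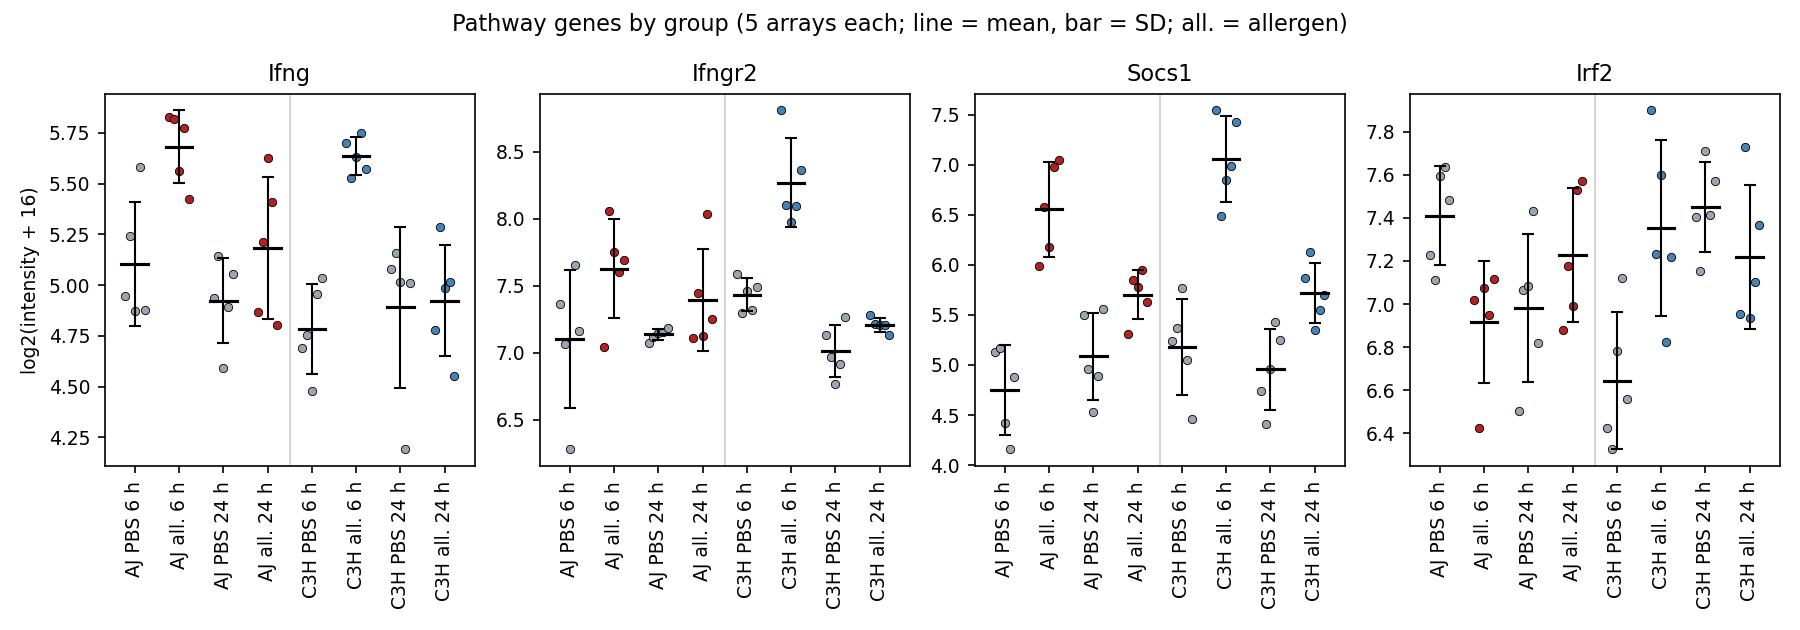
Levels of Ifng, Ifngr2, Socs1 and Irf2, log2(intensity + 16), in the 8 groups of 5 arrays; points are arrays, lines are means and bars are SDs. Socs1 is highest in the 6 h allergen groups of both strains, and the Irf2 mean in the PBS groups at 6 h is 7.41 in AJ and 6.64 in C3H mice.

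Among 26 measured interferon gamma targets outside both GTPase families (30 listed), 10 rose in AJ and 13 in C3H mice at 6 h, with medians of 0.27 and 0.51, and 9 and 6 rose at 24 h. The shares of all genes that rose were 7.03% and 3.93% at 6 h and 4.56% and 2.1% at 24 h. The chemokine ligands Cxcl10 (3.37 ± 0.22 in AJ, 2.68 ± 0.22 in C3H) and Cxcl9 (2.02 ± 0.26 and 2.65 ± 0.26) had the largest rises at 6 h. Unlike Irf1 and Irgm1, Cxcl9 was also higher at 24 h in both strains (1.92 ± 0.26 and 2.19 ± 0.26), and the difference between those genes was not tested. The ligand Cd274 (1.29 ± 0.17 and 1.13 ± 0.17) rose in both strains at 6 h, while Cxcl11 (1.66 ± 0.27) rose in C3H mice and stood at 0.53 ± 0.27 in AJ mice. The strain difference passed for 1 of the 26, the chemokine Ccl5 (-1.04 ± 0.24, limma adjusted p = 0.012), beside 2.15% of all genes. The conjugation genes that direct IRG proteins and GBPs to membranes did not move as a group. Of 11 measured, 0 rose and 1 fell at 6 h in each strain. Over all genes, 12% fell in AJ and 3.69% in C3H mice, so the AJ count is near the share of all genes. The gene that fell was Atg5 in AJ (-0.83 ± 0.13) and Gabarapl2 in C3H mice (-0.35 ± 0.11, limma adjusted p = 0.0421, a call lost in 9 of 15 alternatives).

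Some markers of immune cells rose at the same times as the members. Over all genes, 7.03% rose in AJ and 3.93% in C3H mice at 6 h. At 24 h those shares were 4.56% and 2.1%. Of 12 neutrophil markers 10 rose in AJ and 6 in C3H mice at 6 h, and their summed intensity went from 1372 to 3468 with PBS to 9442 to 12460 with allergen in AJ mice and from 1846 to 3501 to 5083 to 13800 in C3H mice. Camp and Elane, of that list, had a mean intensity below 16 over all arrays. Of 17 macrophage and monocyte markers 10 rose and 1 fell in AJ and 6 rose in C3H mice at 6 h, with sums of 7932 to 9178 (PBS) and 10390 to 12450 (allergen) in AJ and 8114 to 9936 and 9135 to 14330 in C3H mice. At 24 h 13 and 9 of those 17 rose. Of 19 markers of T and NK cells, the cells that make interferon gamma, 4 rose in AJ and 1 in C3H mice at 6 h. The C3H count is near the share of all genes. Sums were 596.3 to 861 (PBS) and 1059 to 1518 (allergen) in AJ mice. In C3H mice they were 794.8 to 959.9 and 923.8 to 1396. No marker was listed at 0 on any array. Of 14 endothelial markers 3 fell at 6 h in each strain, and of 12 alveolar epithelial markers 3 fell in AJ and 2 in C3H mice, beside 12% of all genes lower in AJ and 3.69% in C3H mice. Sums of cardiac and skeletal muscle markers ranged from 2757 to 19450 over all arrays, with 0 of 17 passing at 6 h in either strain. In AJ mice at 24 h, 4 of 17 muscle and 3 of 8 adipose markers fell, and the muscle mean log2 level was 8.40 to 9.24 on PBS and 6.82 to 7.92 on allergen arrays, with no overlap. Adipose means there went from 8.40 with PBS to 7.17 with allergen. Over all genes, 971 passed in AJ mice at 24 h in either direction, 58.2% of them higher. The part of any of these lists in the members' values was not tested.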

How the data were processed

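The deposited table holds 1 linear intensity per probe set and array, made by the authors with software not given in the sources used here. Of 22690 probe sets, 64 were controls, and the platform annotation supplied names. Left out were 691 probe sets carrying several symbols and 1555 carrying none, and each gene took its brightest probe set. Group means for the 8 groups were fitted to log2(intensity + 16) over 40 arrays by lmFit and eBayes (limma 3.58.1, R 4.3.3; residual degrees of freedom 32), with adjustment over 12393 genes in each of 12 contrasts. The members and the 17 gene lists were chosen with earlier results of these data known. Genes named are the members, all measured GBP and IRG genes, a preset group of pathway genes, up to 4 of the largest called genes per list and contrast, and the 4 genes most like each member in profile. Alternatives are in the closing section. The test was checked on simulated data. No arrays were identical, and the number of arrays limits the precision.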

Additional observations from a re-analysis of the deposited data

Results flagged for a closer look

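Within groups of 5 arrays, 3 member values stood apart by Dixon's ratio of the gap to the whole range (critical value 0.71, 40 groups tested, of which chance marks about 1 in 20). Irf1 was lowest in C3H allergen replicate 3 at 24 h (ratio 0.792), at 417 beside 566 for the nearest array. Iigp1 was lowest in C3H PBS replicate 5 at 24 h (ratio 0.773), at 267 beside 299.5. Irgm1 was highest in C3H PBS replicate 5 at 6 h (ratio 0.787), at 248 beside 199.

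The allergen effect differed between times for 5 results by the test of the difference (limma, adjusted p under 0.05). In AJ mice the effect at 24 h minus that at 6 h was -0.75 for Irf1 and -0.92 for Iigp1. In C3H mice it was -0.87 for Irf1, -1.25 for Iigp1 and -1.12 for Irgm1. On its dimmer probe set Iigp1 did not pass in either strain.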

How the results depend on the processing

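Over all members and contrasts, there were 684 results under settings other than leaving out 1 array. Those settings included a fit without the arrays with letter b and a fit of only the groups of a contrast. Of the 684, 658 were on the same side of the threshold, 14 no longer called, 12 newly called and 0 reversed. Leaving out 1 array at a time gave 767 of 800 on the same side, 20 no longer called, 13 newly called and 0 reversed. A difference that passed in neither fit was given no direction, and 51 of 979 such differences changed sign. All 5 members rose at 6 h in both strains under every setting run.

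The count for 24 h minus 6 h in AJ mice was 1 in place of 2 with a pseudocount of 1, quantile normalization, the mean of all probe sets, every probe set tested on its own, a replicate block, only the groups of the contrast, or without the arrays with letter b in their titles, and ran from 1 to 3 when 1 array was left out. In C3H mice that count was 3, with 2 to 5 under other settings: 5 with the mean of all probe sets and 2 with median centring, where Irf1 was lost (-0.79, adjusted p 0.0667). Irf1 was also lost with only the groups of the contrast (adjusted p 0.0644), and the count was 1 to 4 leaving out 1 array. For C3H against AJ in PBS mice at 6 h it was 1 in place of 0 (Irgm1) with a pseudocount of 64, without the genes of lowest mean, or with median centring. For 24 h against 6 h in AJ PBS mice it was 1 (Irgm1) with that filter or median centring. Leaving out 1 array gave 0 to 1 in both of these and for C3H minus AJ at 6 h, and 2 to 4 for AJ at 24 h. The cause was not tested.

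Replicate numbers gave little sign of pairing the samples. The median correlation was 0.00143 over 140 same-numbered pairs of arrays and -0.00646 over pairs with different numbers. Of the 140, 36 correlated above 0.1, which was not counted for the other pairs. For 10 of 40 arrays the best match had their own number. With the number as a replicate block, Iigp1 for 24 h minus 6 h in AJ mice stood at an adjusted p of 0.0636. Among all calls, median centring moved the share that was higher from 36.9% to 48.9% in AJ at 6 h, from 64.7% to 79.7% in C3H at 24 h and from 53.2% to 33.3% for C3H minus AJ at 6 h. List counts and named genes outside the members were also tried without single arrays, chosen after seeing the data.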
